A study of Mus musculus with 75 samples.

Results

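Polysome loading of mRNA was compared between CD4 T cells activated in the presence and in the absence of regulatory T cells (Tregs). The comparison used 16 of the 75 sequenced samples: the polysomal (Pol) and subpolysomal (SubPol) fractions of 4 cultures with Tregs and of 4 without, 1 of each kind per mouse, from mice 1 to 4. These were all the samples of the sucrose gradient assay (called SPEED in the labels) with these stimulations and fractions. The responders were CD4+CD25- effector T cells from spleen and lymph nodes. Their genotype label was B6.SJL-PtprcaPepcb/BoyJ, a strain that carries the CD45.1 form of a leukocyte surface protein, while the design text calls the same mice C57/B6. Both kinds of culture received anti-CD3/CD28 beads, which engage the T cell receptor and its co-receptor. The cultures with Tregs also received CD4+YFP+ cells, which in Foxp3YFP-Cre mice are cells that express Foxp3, the defining transcription factor of Tregs. The ratio of Tregs to responders, the culture time, which density control was used and whether Tregs were removed before lysis were not stated in the labels used here. Other SPEED cultures were untreated or were stimulated and given HHT (homoharringtonine, for 10 min), and they share in the estimate of the spread below. A second assay, RiboTag, pulled ribosomes with a tagged Rpl22 protein from the same kind of cell in 5 other mice. Those mice carried B6N.129-Rpl22tm1.1Psam/J, the tagged allele, with B6.Cg-Tg(Cd4-cre)1Cwi/BfluJ, a transgene in which Cd4 sequences drive the Cre. Their cultures were labelled IL7 rest, anti-CD3/CD28 beads, or these beads with Tregs, and no sample is shared with SPEED.

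An mRNA carrying several ribosomes sediments in the polysomal part of a sucrose gradient, whereas free mRNPs, subunits and mRNAs with few ribosomes stay in the lighter, subpolysomal part. The ratio of an mRNA in Pol over SubPol is therefore a measure of its ribosome loading relative to other mRNAs in the same culture. Activated T cells raise protein synthesis, and mRNAs of the translation machinery are known to move between free mRNPs and polysomes with mTORC1 activity. Tregs restrain effector T cell proliferation and cytokine production. HHT blocks the first rounds of peptide bond formation, so that ribosomes already elongating run off their mRNAs.

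The 16 libraries held between 1566501 and 4440921 counts. Mouse 4 had the fewest (1566501 to 1741502) and mouse 3 the most (3256894 to 4440921), in both conditions. Each sample's counts were scaled to CPM, counts relative to the effective library size, by the trimmed mean of M-values (TMM), so a change that moved all mRNAs alike from Pol to SubPol would not appear in these ratios. The 100 genes with the highest counts held 7.67 to 8.46% of the counts in the libraries of mouse 4 and 5.70 to 5.92% in those of mouse 3, so this share moved with depth. The files identify genes by Ensembl identifier, and 0 of 53465 identifiers were matched to a symbol. The translation machinery was therefore not analysed here by gene name, and gene sets were formed from levels and from other libraries of the series. Markers of Tregs or of other cell types were likewise not examined, and whether RNA of the added Tregs was present in the libraries was not tested. In bulk samples, fewer cells of a type and less RNA per cell cannot be told apart.

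In the stimulated cultures 5969 of 11731 genes (50.9%) differed between Pol and SubPol, and in the cultures with Tregs 5908 did (50.4%), by edgeR at an adjusted p under 0.05. Between the conditions, no gene changed its Pol over SubPol ratio with Tregs past the test. Of 11731 genes tested, 0 passed edgeR's quasi-likelihood test with the culture as a block (adjusted p under 0.05), a background share of 0%. The number with an unadjusted p under 0.05 was 428, or 3.65% of the genes. The lowest adjusted p was 0.520 (edgeR, Benjamini-Hochberg). With no filter beyond 1 count, edgeR called 5 genes (2 higher and 3 lower), all of them among the 11731. DESeq2's Wald test on the same libraries called 1 gene, which is also 1 of these 5 and is described below, and had 500 genes at an unadjusted p under 0.05. The edgeR p-values measure the spread between cultures of the same stimulation, pooled over the untreated, stimulated, Treg and HHT cultures. The main fit held no term for the mouse. All these cultures came from the same 4 mice, and whether separate animals also mean separate Treg donors is not given.

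The absence of calls can be read against the precision of the ratio. In the 7261 genes whose log2 CPM averaged 5 or more over the 30 fraction libraries, the median standard error of the log2 change was 0.18. For 90.3% of them the 95% confidence interval lay within a 2-fold change in either direction, and for 57.8% it lay within 1.5-fold. The estimated change was past 2-fold for 16 of these genes (0.220%) and past 1.5-fold for 177 (2.44%). Below that level the data say little. In the 4470 genes with a lower mean, the median standard error was 0.74 and 10.8% had an interval within 2-fold.

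The same fit made calls for the other stimulations. HHT changed the ratio of 3495 genes against the stimulated cultures (29.8% of 11731), with 1470 higher and 2025 lower. When the ratio under HHT was tested directly against that with Tregs, 3283 genes differed (28% of those tested). Stimulation alone changed 849 genes against untreated cultures (7.24%). The cultures with Tregs differed from untreated cultures in 561 genes (4.78%), of which 353 were higher and 208 lower in Pol over SubPol. The comparisons with HHT and with Tregs share the stimulated cultures, and the last 2 comparisons share the untreated ones.

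**Figure D1:**
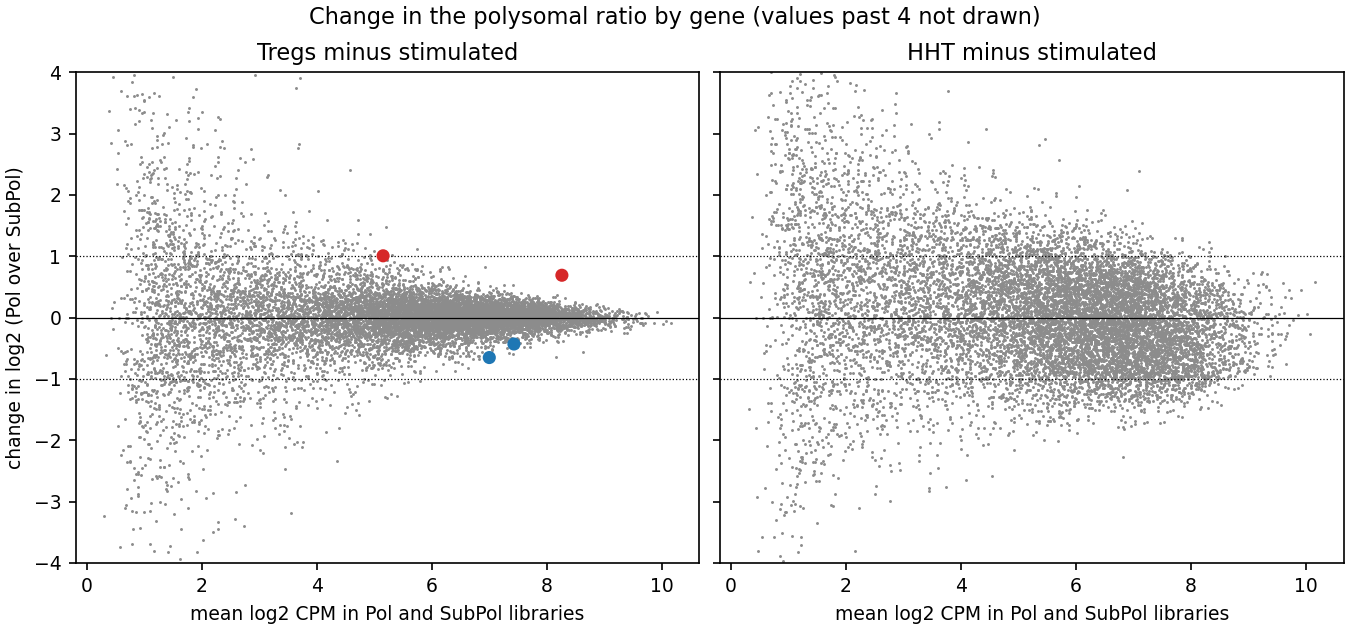
Change in log2 Pol over SubPol for each of 11731 genes (vertical axis) against its mean log2 CPM in the fractions (horizontal axis), with Tregs (left) and with HHT (right), each against the stimulated cultures. Dotted lines mark 2-fold changes, and red and blue points are the 2 leading identifiers in each direction; with Tregs the cloud narrows to the zero line at high level, where 16 of 7261 well-measured genes lie past 2-fold, against 976 with HHT.

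Mice differed from one another about as much as cultures with Tregs differed from those without. For each mouse, the SD over the 7261 genes of the difference in log2 ratio between its culture with Tregs and its culture without was 0.43, 0.39, 0.52 and 0.38 in mice 1 to 4. Between stimulated cultures of 2 different mice this SD was 0.37 to 0.48 over 6 pairs. Between cultures with Tregs of 2 mice it was 0.37 to 0.48 as well. Thus 3 of the 4 values for Tregs lay inside the range between mice, and mouse 3 lay above it. For HHT the SD was 0.75, 0.69 and 0.79 in mice 1 to 3. For stimulation against rest it was 0.59, 0.62, 0.79 and 0.54 in mice 1 to 4. All 7 of these values exceeded every value between mice. The values between mice came only from stimulated cultures with and without Tregs. The SD between untreated cultures, or between HHT cultures, of different mice was not computed.

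**Figure D2:**
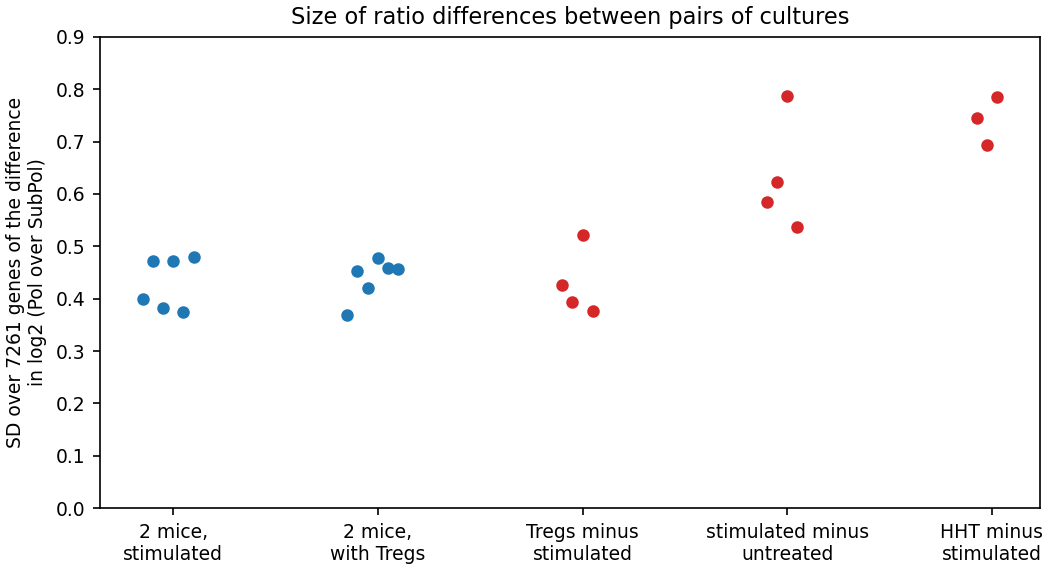
SD over 7261 genes of the difference in log2 Pol over SubPol between 2 cultures (vertical axis), with 1 point per pair of cultures. Blue points compare 2 mice under the same condition and red points compare 2 conditions in the same mouse; the 4 values for Tregs run from 0.38 to 0.52 beside 0.37 to 0.48 between mice, and the 3 for HHT from 0.69 to 0.79.

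Nor did the genes move alike from mouse to mouse. Across the 7261 genes, the change of the ratio with Tregs had Pearson correlations between -0.10 and 0.18 for the 6 pairs of mice, with a mean of 0.01. The points of such a correlation are genes, which share libraries and depth, and the values are descriptions. The change with HHT had correlations of 0.63 to 0.74 for 3 pairs of mice. The change on stimulation had 0.21 to 0.37 for 6 pairs.

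The RNA level did move with Tregs in each fraction taken alone. In Pol, 22 of 12428 genes were higher and 13 lower with Tregs (35 in all, 0.282% of genes tested). In SubPol, 102 were higher and 41 lower (143, 1.15%). In Input, the unfractionated RNA of the same cultures, 57 were higher and 16 lower (73, 0.587%). All 3 counts are edgeR calls at an adjusted p under 0.05 with 1 mean per group, and they were 72, 245 and 149 with the mouse as a replicate block. Leaving out 1 mouse lowered them by more than 1.5 times whichever mouse it was. They ran from 3 to 20 in Pol, with the lowest count without mouse 4. In SubPol they ran from 19 to 80 and in Input from 6 to 41, both with the lowest count without mouse 2. The mean changes in Pol and in SubPol, which come from different libraries of the same cultures, had a correlation of 0.61 across 7261 genes. Between mice the change correlated at 0.15 to 0.49 in Pol, 0.16 to 0.44 in SubPol and 0.28 to 0.53 in Input over 6 pairs each, all of them positive.

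Genes chosen in the other assay give the level and the ratio side by side. In RiboTag Input, 296 genes tested in SPEED were higher with Tregs than with stimulation alone. In SPEED their median log2 change with Tregs was 0.29, 0.47, 0.43 and 0.30 in the Input of mice 1 to 4. In SubPol it was 0.30, 0.52, 0.27 and 0.30, and in Pol 0.14, 0.52, 0.21 and 0.35. Every value was above 0. Of the 296 genes, 269 (90.9%) had a positive change in SubPol and 266 (89.9%) in Pol, beside 48.4% and 46.7% of the 11731 genes tested for the ratio. In SubPol 30 and in Pol 10 of the 296 passed the test as higher, beside 0.869% and 0.188% of the 11731. The median change of their Pol over SubPol ratio was -0.10, 0.04, -0.04 and 0.05 in mice 1 to 4, a mean of -0.01 ± 0.07 (SD, n = 4). The mice differed in sign, and 0 of the 296 passed the test of the ratio.

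The 181 genes that were lower with Tregs in RiboTag Input had the opposite pattern of levels. Their median change was -0.21, -0.32, -0.22 and -0.18 in SPEED Input of mice 1 to 4, -0.18, -0.39, -0.15 and -0.19 in SubPol, and -0.16, -0.36, -0.13 and -0.24 in Pol. Both fractions were lower in every mouse. In Pol 31 (17.1%) and in SubPol 32 (17.7%) of the 181 genes had a positive change, beside the same shares of all genes as above. In Pol 0 of the 181 passed the test as lower and 1 as higher, beside 0.111% and 0.188% of the 11731. In SubPol 2 passed as lower and 5 as higher, beside 0.350% and 0.869%. The ratio changed by 0.07, 0.08, 0.02 and -0.01, a mean of 0.04 ± 0.04 (SD, n = 4), and 0 of the 181 passed. The median over all genes was 0.01 ± 0.02 (SD, n = 4). For the 230 genes lower with Tregs in RiboTag IP, the ratio changed by 0.02, 0.09, 0.04 and 0.04. The mean was 0.05 ± 0.03 (SD, n = 4), or 0.02 with RLE size factors, where the value over all genes was -0.01. For the 370 genes higher in RiboTag IP, the ratio changed by -0.08, 0.03, -0.01 and 0.03, a mean of -0.01 ± 0.05 (SD, n = 4). In both sets 0 genes passed.

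**Figure D3:**
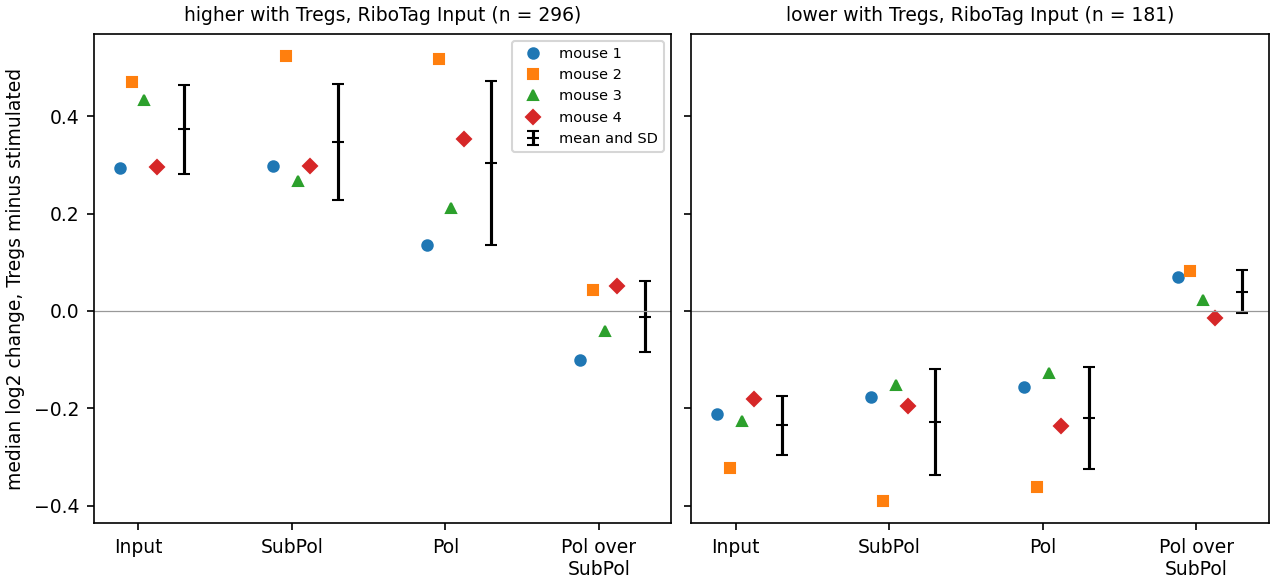
Median log2 change with Tregs in SPEED (vertical axis) of the genes that were higher (left, n = 296) or lower (right, n = 181) with Tregs in RiboTag Input, in Input, SubPol and Pol and for the ratio Pol over SubPol. Symbols are mice 1 to 4 and black bars the mean and SD; the 3 fractions lie on the same side of 0 in all 4 mice, and the ratio lies around 0.

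The most abundant genes were taken as the 200 tested genes with the highest mean log2 CPM in the 8 Input libraries of the 2 conditions. Translation machinery and noncoding RNA were not set apart from them, since identifiers were not matched to symbols. The gene ranked last inside this set had 8.685 and the first outside it 8.684. These genes favoured polysomes. Their median log2 Pol over SubPol was 0.56, 0.64, 0.42 and 0.75 in the stimulated cultures of mice 1 to 4. With Tregs it was 0.48, 0.56, 0.41 and 0.66. The value with Tregs was the lower of the 2 in each mouse, but the groups of 4 overlapped. Gene by gene, the median change was -0.05, -0.02, -0.00 and -0.05, a mean of -0.03 ± 0.02 (SD, n = 4). Of the 200 genes 36% had an estimate above 0, against 52.5% of all genes tested, and 0 passed. The range of single genes was narrow, with an SD over the 200 changes of 0.10. The mean was -0.06 with RLE size factors, and the fitted median was -0.06 with no block and with DESeq2. Over all genes the value was 0.01 in the main fit and -0.01 in each of these settings, so it moved down as well. Relative to Input in place of SubPol, the median change of the 200 genes was 0.09, so the direction depended on the reference fraction.

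The ratio was lower at lower Input level in both conditions, in the same order of classes. In the stimulated cultures the median log2 ratio was 0.52 ± 0.06 for the next 800 genes by Input level, 0.37 ± 0.04 for the 1000 after them and 0.16 ± 0.02 for the following 2000 (SD, n = 4 each). It was -0.04 ± 0.03 for a further 4000 genes and -0.34 ± 0.05 for the remaining 3731. With Tregs the corresponding values were 0.51 ± 0.07, 0.38 ± 0.04, 0.19 ± 0.04, -0.02 ± 0.03 and -0.34 ± 0.05. The 4 values with Tregs overlapped the 4 without in all 5 classes. The mean change was between -0.00 and 0.02 in all 5, and under other scalings these small values took either sign.

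Genes were next grouped by their polysome preference in the untreated cultures, which are no part of the comparison. Among genes with an Input log2 CPM of at least 5, 677 had a Pol level of 2-fold the SubPol level or more at rest. Their median log2 ratio was 1.129, 0.945, 1.023 and 1.115 in the stimulated cultures of mice 1 to 4, and 0.924, 0.959, 0.979 and 1.204 with Tregs. The change was -0.18 in mouse 1 and 0.12 in mouse 4, with 0.02 and -0.01 in mice 2 and 3. At the other end, 228 genes had a Pol level 2-fold or more below that in SubPol. Their median was -1.01, -1.03, -1.14 and -1.05 without Tregs and -1.12, -1.15, -0.96 and -1.03 with Tregs. The change was 0.18 in mouse 3 and -0.17 in mouse 2. The medians of whole classes thus differed within a mouse in directions that varied between mice, and the means over 4 mice were -0.01 ± 0.13 and -0.04 ± 0.15 (SD). The classes between, with 3572 and 2653 genes, had mean changes of 0.00 ± 0.03 and 0.04 ± 0.06.

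A further class held genes with a high ratio under HHT. In the stimulated cultures its median log2 ratio was 0.52, and its median change with HHT was 0.77. The class was chosen on the same HHT libraries, so a rise with HHT follows in part from the choice. The 115 genes whose Pol level under HHT was 2-fold the SubPol level or more changed with Tregs by -0.26, 0.11, -0.22 and 0.18 in mice 1 to 4. The mean was -0.05 ± 0.23 (SD, n = 4), the widest spread between mice among the classes of at least 100 genes, and 0 of 115 passed.

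The response to activation was also read through genes chosen in RiboTag. The 1680 genes that stimulation raised 2-fold or more in RiboTag Input, against IL7 rest, had lower levels with Tregs in SPEED, with median changes of -0.08, -0.21, -0.10 and -0.18 in Pol and -0.07, -0.22, -0.15 and -0.18 in SubPol of mice 1 to 4. Their ratio changed by 0.03, 0.08, 0.05 and 0.01, above 0 in 4 of 4 mice. The mean of 0.04 ± 0.03 (SD, n = 4) stood beside 0.01 ± 0.02 over all genes, and 58.0% of the 1680 estimates were above 0 against 52.5% of all. The mean was 0.01 with RLE size factors and with TMM factors from all but the 200 most abundant genes, and the median was 0.02 with DESeq2. Over all genes the value was -0.01 in each of these settings, so it moved down as well. Against Input in place of SubPol the mean of the 1680 genes was -0.01, beside -0.02 over all genes. The 1454 genes lowered 2-fold or more by stimulation had higher levels with Tregs, with 0.09, 0.38, 0.14 and 0.23 in Pol and 0.24, 0.36, 0.18 and 0.18 in SubPol. Their ratio changed by -0.12, 0.04, -0.01 and 0.06, a mean of -0.01 ± 0.08 (SD, n = 4). In both sets 0 genes passed the test of the ratio.

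**Figure D4:**
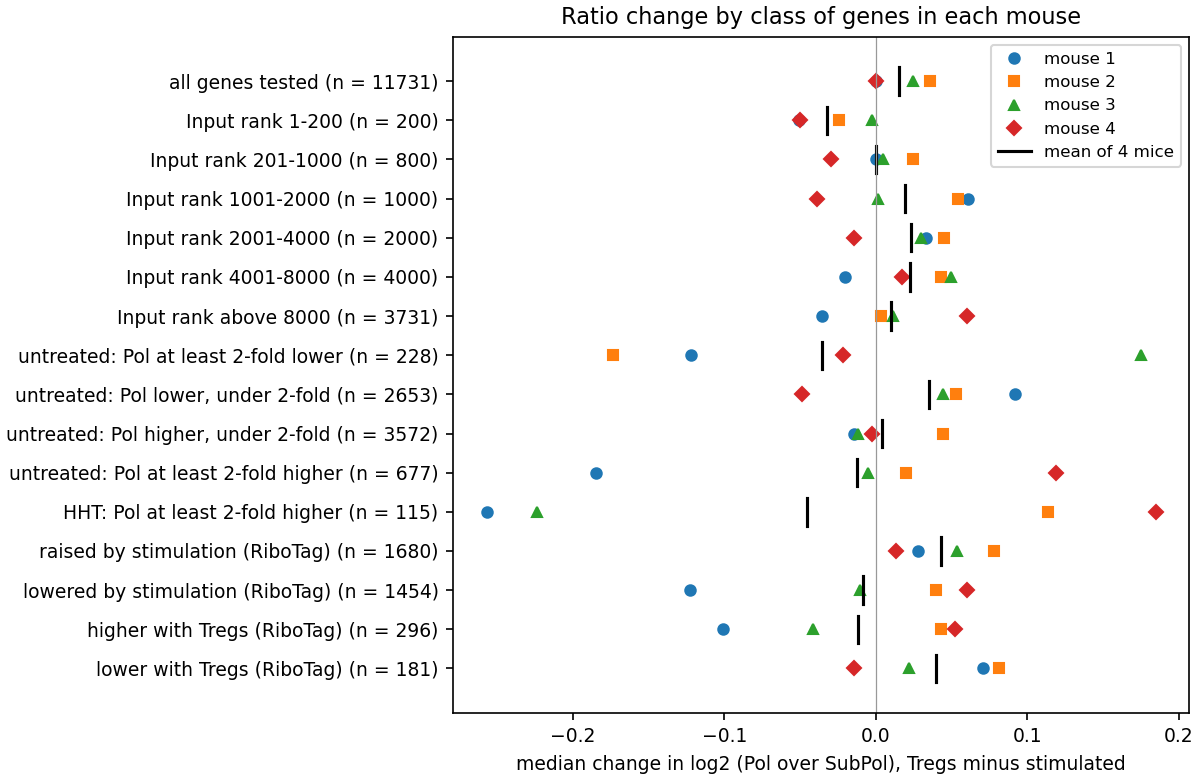
Median change in log2 Pol over SubPol with Tregs (horizontal axis) for classes of genes set by Input rank, by the ratio in untreated or HHT cultures, or by RiboTag Input. Symbols are mice 1 to 4 and black bars their means; every mean lies between -0.05 and 0.05, while single mice reach -0.26 and 0.18.

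Single genes with the lowest p that moved the same way in all 4 mice are given by identifier, up to 2 in each direction. Of the 7261 well-measured genes, 557 were higher and 402 lower in all 4 mice (959, 13.2%). The 4 ratios with Tregs did not overlap the 4 without for 178 genes (2.45%), beside the 0% called. Neither share was compared with the share that unrelated groups of 4 would give. Both are descriptions, as is a lack of overlap in the single genes below.

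ENSMUSG00000000078 had the lowest p. Its log2 Pol over SubPol was -0.54, -0.35, -0.44 and -0.18 in the stimulated cultures of mice 1 to 4 and 0.31, 0.06, 0.56 and 0.25 with Tregs. The gene lay on the subpolysomal side in every culture without Tregs and on the polysomal side in every culture with them. In SubPol it had 123, 119, 125 and 124 CPM without Tregs and 75.6, 101, 78.6 and 110 CPM with them. In Pol it had 84.5, 93.6, 92.1 and 110 CPM without and 94.0, 105, 116 and 132 CPM with Tregs. The lower SubPol level, with a log2 change of -0.44, made up more of the difference than the higher Pol level, with 0.21. The change of the ratio was 0.69 ± 0.13 (standard error), with a 95% interval from 0.42 to 0.96, and did not pass (edgeR adjusted p = 0.520). This gene was the 1 called by DESeq2 (adjusted p = 0.0160), and edgeR called it when genes with low counts were kept (adjusted p = 0.00373). Over all alternatives its adjusted p ran from 0.00373 to 1. Its Input level had a log2 change of 0.43 that did not pass (edgeR adjusted p = 0.108), and against Input its change in Pol was -0.23. Under HHT its ratio was higher by 0.41 (edgeR adjusted p = 0.0335) against the same stimulated cultures. In RiboTag its IP over Input changed by -0.02 ± 0.09 (standard error) with Tregs.

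ENSMUSG00000028076, the other leading gene with a higher ratio, was a low-level gene. Its log2 ratio was -0.00, 0.22, -0.19 and 0.21 without Tregs and 1.43, 0.36, 1.02 and 1.31 with Tregs in mice 1 to 4. The groups did not overlap, but mouse 2 moved little. SubPol held 16.7, 14.4, 22.0 and 15.8 CPM without and 6.84, 12.9, 9.19 and 13.9 CPM with Tregs. The change of 1.01 ± 0.27 (standard error) rested on 20 to 86 counts per library with Tregs and did not pass (edgeR adjusted p = 1). Against Input its change in Pol was -0.28.

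ENSMUSG00000030002 led the genes with a lower ratio. Its log2 ratio was 0.21, -0.21, 0.14 and -0.06 without Tregs and -0.34, -0.43, -0.48 and -0.37 with them. The values with Tregs were closely spaced and all lay below those without. Pol held 132, 129, 131 and 141 CPM without and 146, 134, 126 and 138 CPM with Tregs, a log2 change of 0.01. SubPol held 114, 149, 119 and 147 CPM without and 184, 181, 176 and 179 CPM with Tregs, a change of 0.45 that passed the test of that fraction (edgeR adjusted p = 0.0199). The ratio changed by -0.43 ± 0.11 (standard error) and did not pass (edgeR adjusted p = 1). Against Input its change in Pol was -0.07.

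ENSMUSG00000020097 was strongly polysomal in the stimulated cultures, with log2 ratios of 1.52, 1.58, 1.93 and 1.93. With Tregs they were 0.76, 1.15, 0.91 and 1.60, lower in each mouse but overlapping through mouse 4. SubPol held 58.1, 47.2, 29.7 and 27.8 CPM without and 83.5, 77.6, 60.7 and 52.5 CPM with Tregs. The ratio changed by -0.65 ± 0.18 (standard error) with Tregs and did not pass (edgeR adjusted p = 1), beside a change of -1.45 with HHT that did (edgeR adjusted p = 3.04e-05). Against Input its change in Pol with Tregs was -0.15. With no filter beyond 1 count, edgeR called neither this gene nor ENSMUSG00000030002 (edgeR adjusted p = 0.280 and 0.766). The genes called lower in that fit were others and are not described here. In the 4 named genes the SubPol level differed more between conditions than the Pol level, in the direction opposite to the ratio. These genes were chosen by the ratio, which has SubPol as its denominator, so that direction follows in part from the choice.

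**Figure D5:**
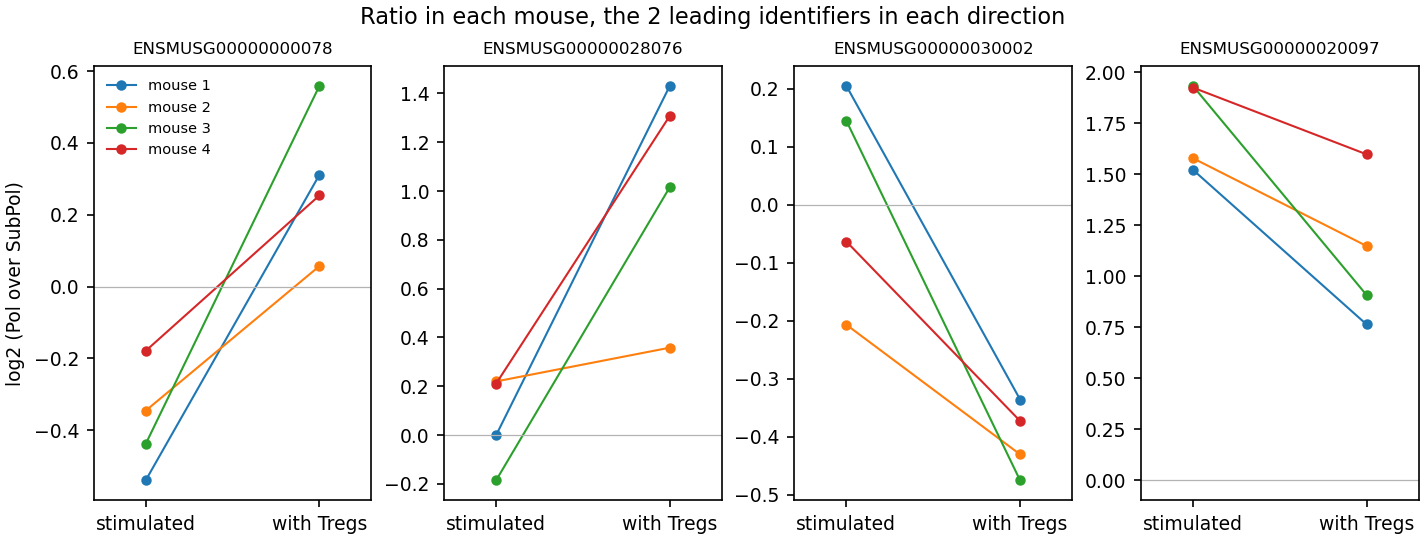
Log2 Pol over SubPol (vertical axis, with its own scale in each panel) of 4 genes in the stimulated culture and the culture with Tregs of each mouse, joined by a line. The first gene changes from below to above 0 in all 4 mice, and the last overlaps between conditions; none of the 4 passed edgeR's test.

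RiboTag also gave a count of 0 in other mice, for a different measure. Ribosome-bound over total RNA (IP over Input) was tested between T cells stimulated with and without Tregs in 5 mice, again with the culture as a block. IP over Input does not separate mRNAs with many ribosomes from those with few. No other IP over Input comparison is given here to show how many changes it can call. Of 10751 genes 0 passed (0%), with 337 at an unadjusted p under 0.05 (3.13%), and 0 passed without the block. Across 6977 genes whose log2 CPM averaged 5 or more in SPEED and also in RiboTag, the changes with Tregs had a Pearson correlation of 0.04 and a Spearman correlation of 0.04. The IP over Input changes of the 4 genes above were -0.02, 0.21, 0.11 and 0.02, each within 1 standard error of 0 (0.09, 0.28, 0.12 and 0.20).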

How the data were processed

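The authors deposited whole-number read counts per Ensembl gene for each library, with no normalization; the submitters' processing notes name HTSeq 0.4.1, Picard 1.134, SAMtools 1.2, FastQC 0.11.3 and GRCm38. The aligner and the treatment of duplicates are not given in the sources used. Libraries were unstranded SMART-Seq v4 with Nextera XT, so overlapping genes share reads. Of the columns of RiboTag counts, 16 matched no sample and were left out.

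Genes were kept by edgeR's filterByExpr (minimum count 10, minimum total 15) and scaled by TMM. The quasi-likelihood model (edgeR 4.0.16, R 4.3.3) covered 30 Pol and SubPol libraries, with the culture as a block and a Pol effect per stimulation. Its contrast was the Pol effect with Tregs minus that without, two-sided, Benjamini-Hochberg threshold 0.05. Fractions alone used 44 SPEED libraries with 1 mean per group; the later of 2 libraries with the same title was left out. Per-culture ratios were log2 CPM differences (prior count 2). DESeq2 1.42.0 and limma 3.58.1 served as alternatives. The script was tested on simulated data in which all genes shared the same spread. The outcome is not given here.

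Same-numbered cultures came from the same mouse. Their ratio deviations correlated between -0.10 and 0.15, with a mean of 0.03. Between cultures of different mice the correlations ran from -0.22 to 0.24, with a mean of -0.01. Libraries of 1 group differed from each other by 3.28 to 9.64 times the sampling noise (chi-square per degree of freedom), so no 2 were the same library deposited again. The members and gene lists were chosen with earlier results of these data known. Classes other than the 200 most abundant genes were set after seeing the data. Named genes were those with the lowest unadjusted p, an average log2 CPM of 5 or more and 1 direction in 4 of 4 mice, since fewer than 10 passed; 2 identifiers are printed in each direction. Lists by symbol, and genes to be named by symbol, were not analysed here.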

Additional observations from a re-analysis of the deposited data

Results flagged for a closer look

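In 2 of 55 groups of 4 values, 1 mouse stood far from the other 3, and chance gives this in about 1 of 20 groups. Among the 296 genes higher with Tregs in RiboTag Input, the median SubPol change in mouse 2 was 0.523, beside 0.267 to 0.298 in the other mice. Among the 16 genes lower with Tregs in SPEED Input, the median Input change in mouse 1 was -0.512, beside -0.768 to -0.818 in the other mice; that class was chosen on the same Input libraries.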

How the results depend on the processing

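The count of 0 genes for the ratio held under 14 of 16 alternatives, including the replicate block for the mouse (0 genes) and each fit without 1 mouse (0 to 0). It was 5 with no filter beyond 1 count and 1 with DESeq2; the cause was not tested. With the mouse as a replicate block, Pol alone gave 72, SubPol alone 245 and Input alone 149 genes. Without 1 mouse these counts ran from 3 to 20, 19 to 80 and 6 to 41. RiboTag stayed at 0 under its 6 alternatives. The median change of the 200 most abundant genes was -0.06 with no block (-0.0616), RLE size factors (-0.0615), DESeq2 (-0.0641) and, chosen after seeing the data, TMM factors without those genes (-0.0632), and 0.0945 for Pol over Input. The median of all genes was 0.01 in the main fit. It was -0.01 with no block, RLE size factors, DESeq2 and TMM factors without those genes. Scaling moved the median of all genes to at most 0.02 on either side of 0. For Pol over Input, the change was -0.230 for ENSMUSG00000000078 and -0.276 for ENSMUSG00000028076. TMM factors without named translation genes were not run, since identifiers were not matched to symbols. Depth limits genes under a log2 CPM of 5.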
